A study of Mus musculus with 10 samples.

Results

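Brg1 (Smarca4), the ATPase of the SWI/SNF chromatin remodelling complexes, was mapped together with Arid1a in wildtype mouse hepatocytes, and the sites described here are the stronger Brg1 summits that had no Arid1a summit beside them. A summit is the single base at which a peak of ChIP-seq reads is highest. The sites were chosen by the readout itself: a Brg1 summit on chromosomes 1 to 19 with a −log10 q of at least 4 and no Arid1a summit within 1 kb. The q-value is the false discovery rate that the peak caller gave the peak in its own library. Of 81227 autosomal Brg1 summits, 7787 reached that limit, 4251 of these had an Arid1a summit within 1 kb, and the remaining 3536 (45.4%, 95% Wilson interval 44.3 to 46.5) are the members.

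The samples came from AB17 cells, primary hepatocytes of an Arid1a fl/fl C57BL/6 mouse that carry SV40 large T antigen, which immortalized them, and an activated H-Ras, so that both genotypes share these oncogenes. Cells infected with the adenoviral control Ad-GFP were wildtype (WT), and cells infected with Ad-Cre were Arid1a knockout (KO). Peak lists covered Brg1, Arid1a, Rad21 and Ctcf in WT cells only, and H3K9me3 and H3K27me3 in both genotypes, with 1 library per group. Brg1 in KO cells was not analysed here, so what follows describes where these Brg1 sites lie in WT cells and which repressive marks were called at them in each genotype. AB17 is a single line, and its hepatocyte identity cannot be checked against marker expression in lists of peaks. With 1 library per group no difference has a replicate check or a test, and every interval given is a 95% Wilson interval that covers counting error only.

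SWI/SNF complexes use the ATPase Brg1 or its paralogue Brm to slide or evict nucleosomes. The canonical BAF form carries Arid1a or Arid1b, whereas the PBAF form carries Arid2 and Pbrm1 in their place, and the non-canonical form carries Brd9 and has no ARID subunit. Brg1 can therefore occupy chromatin in complexes that hold no Arid1a, and these forms are known to differ in how they divide between promoters, enhancers and Ctcf sites. A summit without an Arid1a summit nearby is not the same as a complex without Arid1a, because a weak Arid1a peak can fall below the caller's limit.

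The 101 bases around the summits of 3 strong promoter members and 4 strong members elsewhere are shown first, because they are the sites with the most Brg1 in this set, and none of them held any of the motifs marked in the later sequences. Reference bases are from GRCm38 (mm10), plus strand, in lower case, and windows that touched an untranslated region were passed over.
Beside Malat1, chr19:5794504-5794604: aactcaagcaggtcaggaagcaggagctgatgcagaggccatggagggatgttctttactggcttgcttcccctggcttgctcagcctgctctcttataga
Ppp1r10 promoter, chr17:35918287-35918387: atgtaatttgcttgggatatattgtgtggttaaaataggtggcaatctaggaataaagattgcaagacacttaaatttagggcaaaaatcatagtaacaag
Cbx5 internal promoter, chr15:103214275-103214375: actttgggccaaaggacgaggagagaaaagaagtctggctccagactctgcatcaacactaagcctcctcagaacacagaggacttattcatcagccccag
Stk40 promoter, chr4:126102914-126103014: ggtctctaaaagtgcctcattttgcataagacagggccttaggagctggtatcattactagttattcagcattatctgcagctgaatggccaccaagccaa
Beside Vmp1, chr11:86580185-86580285: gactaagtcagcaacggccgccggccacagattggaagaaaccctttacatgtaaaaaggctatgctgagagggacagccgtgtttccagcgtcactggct
Beside H3f3b, chr11:116021363-116021463: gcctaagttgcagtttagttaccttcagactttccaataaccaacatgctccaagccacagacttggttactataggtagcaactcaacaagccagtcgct
Apbb2 intron, chr5:66497867-66497967: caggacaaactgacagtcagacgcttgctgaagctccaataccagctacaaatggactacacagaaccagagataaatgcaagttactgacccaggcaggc
The next 6 sites carry letters of known factor motifs within 50 bp of the summit, in capitals. AP-1 is the Fos and Jun dimer, whose letters TGANTCA (either strand) were the only ones of the 14 motifs searched that set non-promoter members apart from bases 2000 bp away, with intervals that did not overlap. Nrf1 and the Ets letters CCGGAAGT mark CpG-rich promoters, and the Ctcf core marks the insulator protein's own sites. The Phactr4, Map2k4 and Tulp4 sites were picked after the AP-1 result was seen, as the 3 strongest non-promoter members with TGACTCA or its reverse complement.
Phactr4 intron, AP-1, chr4:132403515-132403615: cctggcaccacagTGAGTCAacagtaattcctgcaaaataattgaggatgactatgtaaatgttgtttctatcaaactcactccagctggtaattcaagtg
Intergenic, nearest coding gene Map2k4, AP-1, chr11:65560991-65561091: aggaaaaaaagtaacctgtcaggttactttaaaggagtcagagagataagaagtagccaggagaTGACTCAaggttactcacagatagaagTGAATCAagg
Tulp4 intron, AP-1, chr17:6141520-6141620: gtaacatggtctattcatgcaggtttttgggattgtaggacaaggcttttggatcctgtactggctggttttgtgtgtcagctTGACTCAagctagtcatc
Adgrg6 intron, Ctcf core, chr10:14505663-14505763: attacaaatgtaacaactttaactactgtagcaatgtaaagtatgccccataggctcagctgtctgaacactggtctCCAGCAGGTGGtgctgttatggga
Arhgef25 coding exon, Nrf1, chr10:127189865-127189965: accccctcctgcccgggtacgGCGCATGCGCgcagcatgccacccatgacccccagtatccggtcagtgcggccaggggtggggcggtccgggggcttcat
Gstm4 promoter, Ets, chr3:108044980-108045080: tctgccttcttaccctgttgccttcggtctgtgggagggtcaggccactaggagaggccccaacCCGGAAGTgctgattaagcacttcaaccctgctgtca

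Most members were modest Brg1 peaks. Their −log10 q had a median of 4.49 and a highest value of 36.1, against 5.03 and 78.6 for the Brg1 summits with Arid1a. A single value, 4.485, was shared by 1103 members (31.2%). Only 78 members reached a −log10 q of 7, against 474 summits with Arid1a, and 8 reached 10, against 109. These values chose the members and are a description. The whole Brg1 list, to which the limit was not applied, had a median of 2.56. Comparisons of members with the whole list are therefore not matched for Brg1 strength. Just inside the limit the weakest members stood at the limit itself, near Oit3, Ado and Tdg, and just outside it the strongest summits without Arid1a stood at 3.97, near Smlr1, Popdc3 and Arid5b. Merging members within 3 kb of each other gave 3442 sites, of which 94 held 2 members.

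The distance to Arid1a, which the rule used, is given as a description. The nearest Arid1a summit lay at a median of 4222 bp (quartiles 1969 and 10380), against 6880 bp for the weaker Brg1 summits without Arid1a. It was at 1 to 2 kb for 903 members (25.5%) and farther than 50 kb for 105 (2.97%), against 15.9% and 7.66% of the weaker summits. The limit cut through a continuous range: the member nearest to Arid1a, in the vicinity of Ninl, was 1002 bp from it, and summits near Per1 and Olr1 were left out at 1000 bp. The stronger the Brg1 peak, the more often Arid1a stood just beyond the limit, in 23.3% of members with −log10 q of 4 to 5, in 29.2% at 5 to 7 and in 48.7% at 7 or more (38 of 78, 38.0 to 59.6). Among the 12 strongest sites it was within 2 kb at 9.

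The strongest members included sites beside a nuclear long non-coding RNA and histone genes. The highest, at −log10 q 36.1, was intergenic, 1136 bp beyond the 3′ end of Malat1, a long non-coding RNA of nuclear speckles, on a soft-masked (repeat) base. Its nearest Arid1a summit was 7839 bp away and itself strong, at 45.5. Next came a summit 1903 bp downstream of the start of Ppp1r10, a regulatory subunit of protein phosphatase 1, at 19.4, and an intergenic summit 3630 bp beyond the end of Vmp1, an autophagy gene, at 18.9. Both had a strong Arid1a summit just outside 1 kb, at 1265 bp (15.4) and 1736 bp (30.2). Histone genes supplied the next pair. A summit in an untranslated region of the replication-dependent H3 gene Hist2h3c2 stood at 17.8, and a summit 499 bp beyond the 3′ end of H3f3b, which encodes the replacement histone H3.3, stood at 12.5. Others of the 12 strongest were in an untranslated region of Nfe2l3 (11.1), at an internal start of Cbx5 (10.2), 993 bp upstream of Stk40 (10.02), 29 bp downstream of the start of Tnfaip6 (9.38) and in introns of Apbb2 (9.38) and Pkp4 (9.27). Cbx5 encodes the heterochromatin protein HP1α and Tnfaip6 a secreted hyaluronan-binding protein.

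Members lay at promoters less often than the Brg1 summits with Arid1a, and divided over the genome much as the whole Brg1 list did. A promoter, here a base within 2 kb of any annotated transcript start, held 1067 of them (30.2%, 28.7 to 31.7), against 26.4% of all autosomal Brg1 summits and 11.4% of autosomal bases. With no Arid1a within 2 kb in place of 1 kb the share was 25.9%, no longer above that of all Brg1 summits. Among the Brg1 summits with Arid1a the share was 58.7% (57.2 to 60.2). Introns held 39.6% of members and intergenic sequence 27.01%, against 22.9% and 15.2% with Arid1a, and exons held 3.22% against 3.20%. Over all Brg1 summits introns held 40.4%, intergenic sequence 29.4% and exons 3.84%. The lower promoter share was present at every strength. It was 26.8% against 54.3% at −log10 q of 4 to 5, 36.9% against 59.5% at 5 to 7, and 52.6% against 75.5% at 7 or more.

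**Figure D1:**
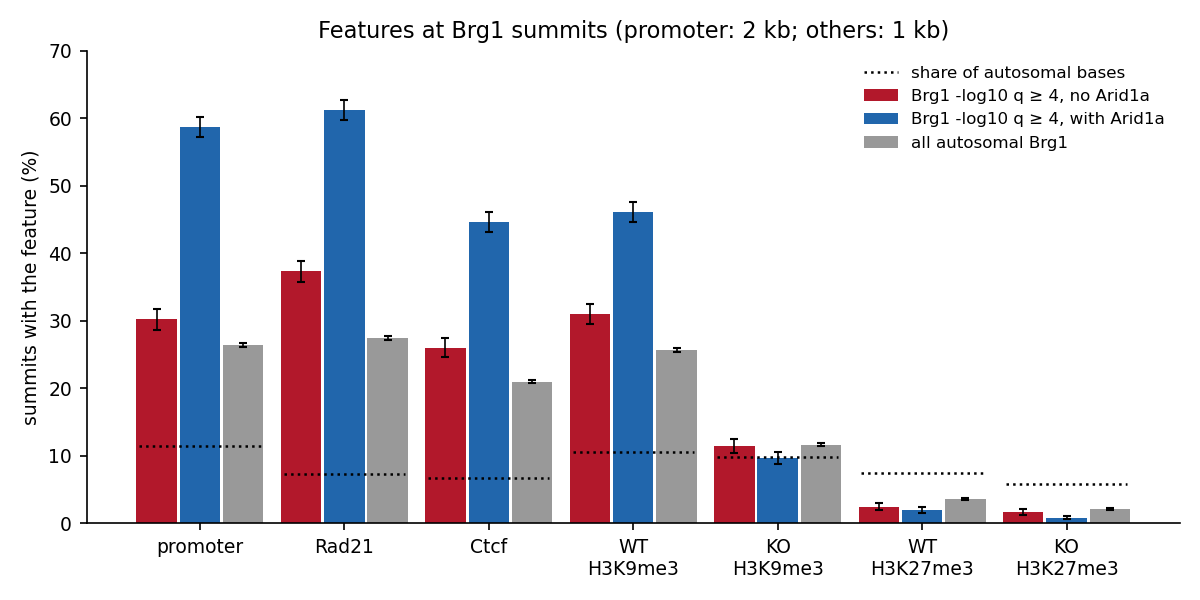
Percent of Brg1 summits with each feature for members (red, n = 3536), Brg1 summits with Arid1a (blue, n = 4251) and all autosomal Brg1 summits (grey, n = 81227); bars start at 0, error bars are 95% Wilson intervals and dotted lines the share of autosomal bases. Members stand between the other classes for promoters, Rad21, Ctcf and WT H3K9me3, and every class is below the dotted line for H3K27me3.

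Around coding gene starts the members formed a lower peak than the summits with Arid1a, and one slightly above that of all Brg1 summits. In the first 500 bp downstream of the nearest protein-coding start lay 169 members (4.78%), against 720 (16.9%) of the summits with Arid1a and 3.73% of all Brg1 summits. Between 1 and 2 kb downstream the classes came closer, at 135 members (3.82%) and 210 (4.94%), with 2.69% of all Brg1 summits. Downstream was favoured over upstream, with 375 members (10.6%) within 2 kb on the transcribed side and 230 (6.50%) on the other, as it was over all Brg1 summits, with 8.44% and 5.66%. Farther than 50 kb from any coding start lay 1080 members (30.5%), against 36.9% of all Brg1 summits. Where a member lay within 5 kb of a coding start and had an Arid1a summit at 1 to 2 kb, the Arid1a summit was the nearer of the pair to the start in 204 of 358 cases (57.0%, 51.8 to 62.0). For the 231 of these downstream of the start it was so in 125 (54.1%, 47.7 to 60.4), and no expected share was computed. Distal members often belonged to a gene with Arid1a at its start: of 1495 non-promoter members within 50 kb of a coding start, 972 (65.0%) had an Arid1a summit within 2 kb of that start, against 72.0% for non-promoter summits with Arid1a, 58.7% for all non-promoter Brg1 summits and 37.0% of all coding starts.

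**Figure D2:**
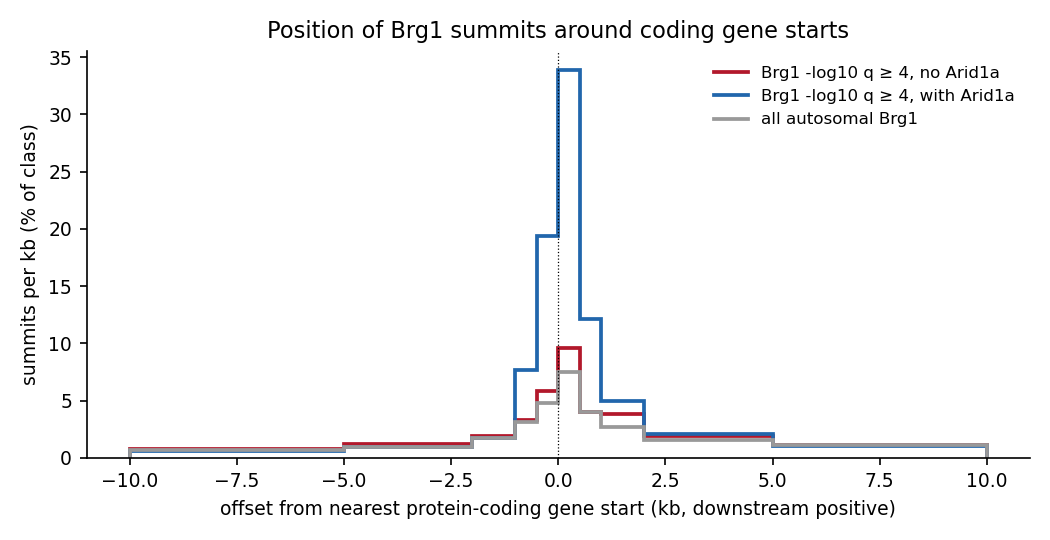
Brg1 summits per kb (percent of each class) against the signed offset in kb from the nearest protein-coding gene start, for members (red), summits with Arid1a (blue) and all autosomal Brg1 summits (grey). In the first 500 bp downstream the members reach 9.56% per kb and the summits with Arid1a 33.9% per kb.

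Promoter members were poorer in CpG than promoter summits with Arid1a, and close to promoter Brg1 summits in general. Median GC content within 250 bp was 43.7% in members (quartiles 38.9 and 49.3), 48.9% with Arid1a and 42.7% in all Brg1 summits. At promoters alone it was 48.5% in members, 56.9% with Arid1a and 47.7% in all Brg1 summits, and away from promoters 42.3%, 43.3% and 41.5%. A CpG-rich window, with GC of at least 50% and a CpG observed to expected ratio of at least 0.6, surrounded 243 of 1067 promoter members (22.8%, 20.4 to 25.4) and 50.1% of promoter summits with Arid1a. The 22.8% was close to the 23.3% of all promoter Brg1 summits. Soft-masked repeats held 773 members (21.9%, 20.5 to 23.2), 15.5% of summits with Arid1a and 33.5% of autosomal bases.

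Of the letters of promoter factors, the GC box and Nrf1 were less frequent at promoter members than at promoter summits with Arid1a, and near their share at all promoter Brg1 summits. The GC box GGGCGGG, bound by Sp1-type factors, stood within 100 bp of 7.78% of promoter members (6.32 to 9.54) and 16.8% of summits with Arid1a (15.4 to 18.4), against 8.46% of all promoter Brg1 summits and 3.80% (3.06 to 4.69) at bases 2000 bp from the promoter members. Nrf1, a regulator of mitochondrial genes, matched 1.12% of promoter members (0.644 to 1.95) and 2.52% (1.98 to 3.22) with Arid1a. The Ets letters matched 1.12% and 1.76%, with intervals that overlapped. Over all promoter Brg1 summits these shares were 1.13% and 0.923%. NF-Y letters, at 1.87% and 1.88%, did not differ between promoter members and promoter summits with Arid1a beyond the intervals. Away from promoters the AP-1 letters TGANTCA stood out from the surrounding bases. They lay within 100 bp of 281 of 2469 members (11.4%, 10.2 to 12.7), against 6.68% (6.02 to 7.41) at bases 2000 bp to either side and 8.03% at all non-promoter Brg1 summits. Among non-promoter summits with Arid1a the share was 10.5% (9.18 to 12.1), an overlapping interval.

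The AP-1 excess came from TGACTCA and its reverse complement, the classical site. It was found at 205 non-promoter members (8.30%, 7.28 to 9.46), against 4.44% in windows 900 bp away and 5.02% at all non-promoter Brg1 summits. Non-promoter summits with Arid1a had a similar share, 7.69% (6.53 to 9.03), against 4.13% in windows 900 bp away from them. TGATTCA and its reverse complement, the other form of the same letters, was found at 3.48%, against 2.71% in the windows 900 bp away. The share with AP-1 letters was 10.3% of non-promoter members at −log10 q 4 to 5, 13.6% at 5 to 7 and 10 of 37 (27.03%, 15.4 to 43.0) at 7 or more. The last rests on few sites, and among summits with Arid1a the strongest band held 8.62% (4.75 to 15.1). The sites in Phactr4, a regulator of protein phosphatase 1 and actin, and Tulp4, a Tubby-family gene, printed above stood at 7.87 and 7.56. The site nearest to Map2k4, a kinase upstream of Jun, lay 227256 bp from its start, stood at 7.56 and was 39131 bp from any Arid1a summit.

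**Figure D3:**
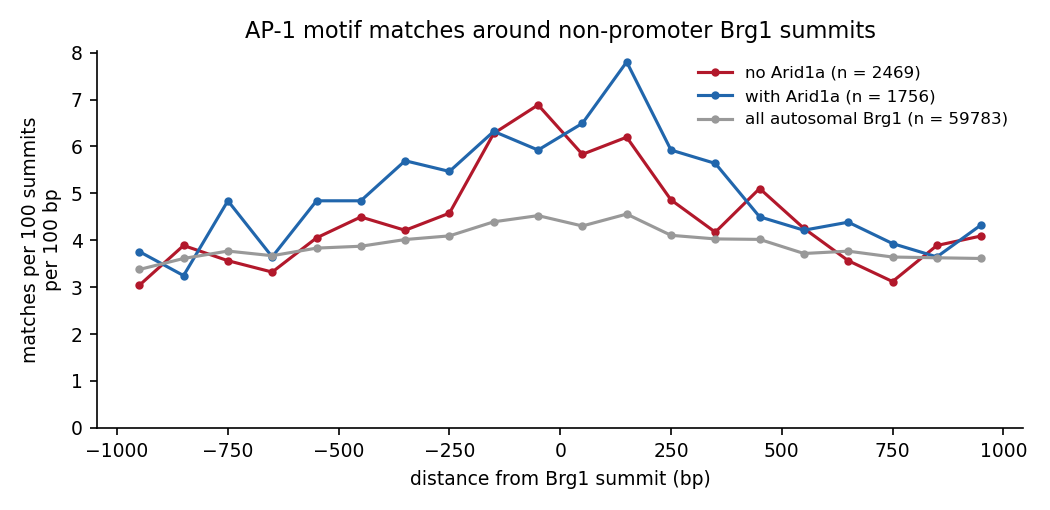
AP-1 motif matches per 100 summits per 100 bp against distance in bp from the summit, for non-promoter members (red), non-promoter summits with Arid1a (blue) and all non-promoter Brg1 summits (grey). Members reach 6.88 in the 100 bp before the summit and have 3.04 and 4.09 at the outer edges. Summits with Arid1a show a similar rise, with 7.80 at 100 to 200 bp after the summit and 3.76 and 4.33 at the outer edges.

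The other motifs of the set did not separate members from bases 2000 bp away beyond the intervals. C/EBP letters TTGCNNAA, for a family of liver and stress factors, matched 9.28% of members against 8.64% at the moved bases and 9.26% of all Brg1 summits. Forkhead letters TGTTTAC matched 3.20% against 3.15%, with 3.10% overall. Tead letters CATTCCA, for the DNA-binding partners of Yap, matched 3.64% of non-promoter members against 5.01% of non-promoter summits with Arid1a, with intervals of 2.97 to 4.46 and 4.09 to 6.13. NF-Y letters CCAATCA matched 1.81% of members, Runx letters TGTGGTTT 1.47%, the E-box CACGTG 2.404%, Yy1 letters AAGATGGC 1.56% and Hnf4 letters CAAAGTCCA 0.311%, against 2.16%, 1.75%, 2.42%, 1.32% and 0.238% of all Brg1 summits. Hnf1 matched 1 member. A match is a description of the letters, and no match says only that they are not in the window.

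Cohesin and Ctcf were found at a minority of the members. Rad21, a subunit of the cohesin ring that holds chromatin loops, had a summit within 1 kb of 1319 members (37.3%, 35.7 to 38.9), against 27.5% of all Brg1 summits, 61.2% (59.7 to 62.7) with Arid1a and 7.35% of autosomal bases. Ctcf, the insulator protein at which cohesin stops, was near 919 (25.99%, 24.6 to 27.5), against 21% of all Brg1 summits, 44.6% with Arid1a and 6.66% of bases. Both were near 658 members (18.6%), Rad21 alone near 661 (18.7%), Ctcf alone near 261 (7.38%) and neither near 1956 (55.3%). The neither class was 30.4% with Arid1a and 65.7% of all Brg1 summits, so that members lacked both partners more often than the former and less often than the whole list. The whole list holds mostly weaker summits, with a median −log10 q of 2.56, and was not matched to the members for strength.

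Rad21 followed promoters and Brg1 strength. It was near 55.3% of promoter members and 29.5% of the others, against 72.8% and 44.8% with Arid1a and 49.5% and 19.6% of all Brg1 summits. It was near 33.0%, 45.9% and 64.1% of members in the rising bands of −log10 q, and near 56.0%, 63.4% and 76.8% of summits with Arid1a. Members were above the whole Brg1 list, which holds mostly weaker summits, in both contexts. They were lower than summits with Arid1a in both contexts and in each of the bands, with intervals that met only in the strongest band. Distance to Arid1a also went with it, from 47.7% of members at 1 to 2 kb to 31.4% of those beyond 10 kb. This is a description, since the rule used that distance, and shares of all Brg1 summits in these distance bands are not given here. Where a Rad21 summit was near, its median distance was 344 bp and 15.5% lay within 100 bp of the Brg1 summit, and for Ctcf the values were 367 bp and 16.2%. The Ctcf core itself was within 100 bp of 0.990% of members and 0.856% of all Brg1 summits. In the Adgrg6 intron printed above it stood 27 bp from the Brg1 summit, with a Ctcf summit 4 bp away (−log10 q 11.5), and no Rad21 summit lay within 38 kb.

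**Figure D4:**
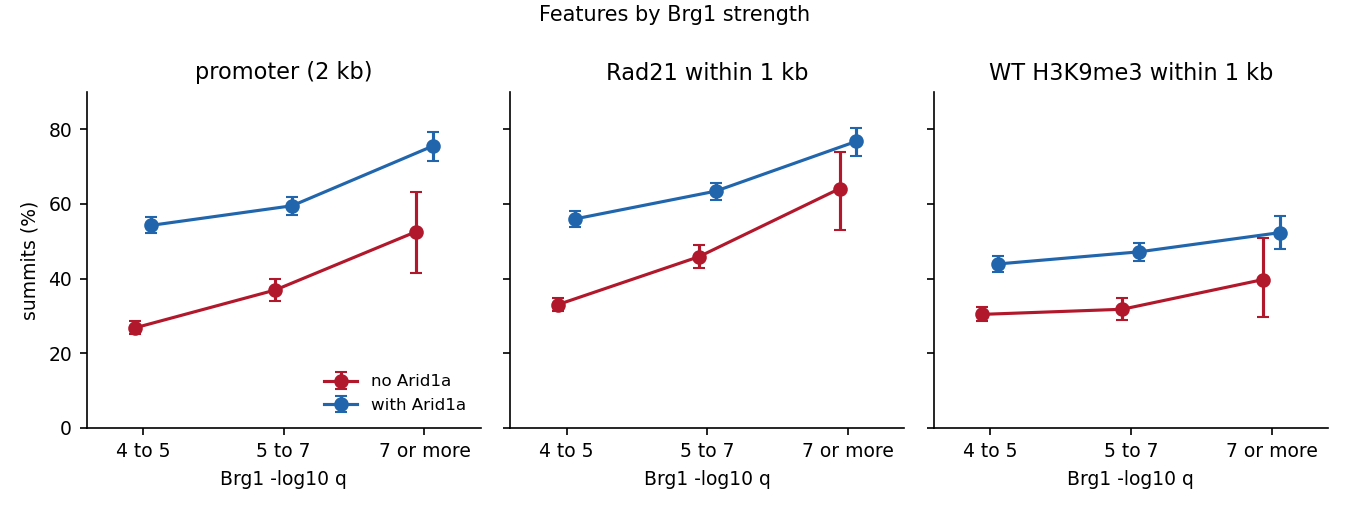
Percent of summits at a promoter, near Rad21 and near WT H3K9me3 in bands of Brg1 −log10 q, for members (red) and Brg1 summits with Arid1a (blue), with 95% Wilson intervals. Members are lower in all bands and all panels, and the Rad21 share of members goes from 33.0% to 64.1%.

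H3K9me3, the histone mark of constitutive heterochromatin, differed more between the genotypes at these sites than H3K27me3 did. A WT summit of the mark lay within 1 kb of 1096 members (31.0%, 29.5 to 32.5) and a KO summit within 1 kb of 404 (11.4%, 10.4 to 12.5). Both lists covered a similar part of the autosomes, 10.5% of bases in WT and 9.76% in KO, with 141657 and 131430 summits. The WT mark alone was called at 913 members (25.8%), the KO mark alone at 221 (6.25%), both at 183 (5.18%) and neither at 2219 (62.8%). A WT excess was also present in the background, where the WT list was near 25.6% and the KO list near 11.6% of all Brg1 summits, WT alone near 20.7% and KO alone near 6.72%. Summits with Arid1a had more of it, at 46.1% in WT and 9.64% in KO, with WT alone at 41.2% and KO alone at 4.70%. The members thus stood between the summits with Arid1a and the whole Brg1 list in the share with the mark called in WT alone. The whole list was not matched to them for Brg1 strength.

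The mark's excess in WT went with Rad21 and with promoters, as it did over the whole Brg1 list. WT-only H3K9me3 was at 35.9% (33.4 to 38.6) of members near Rad21 and at 19.8% (18.2 to 21.5) of the others, and at 33.4% of promoter members (30.6 to 36.2) and 22.6% of non-promoter members (20.9 to 24.2). Over all Brg1 summits these shares were 34.6%, 15.4%, 31.8% and 16.7% in the same order, so that members near Rad21 and at promoters had the mark about as often as the list, and the others more often. It was at 24.9% of members at −log10 q 4 to 5 and at 31 of 78 (39.7%, 29.6 to 50.8) at 7 or more. The KO-only share stayed between 5.36% and 6.60% across the bands. In WT the mark had 22.6 and 22.3 summits per 100 sites in the kilobase on each side of promoter members, against 11.9 and 11.2 at the ends of a window of 10 kb. In KO it had 4.03 and 5.25 in the centre and 6.28 and 6.84 at the ends. Around non-promoter members the WT profile was flatter, at 16.4 and 15.8 in the centre and 13.0 and 13.9 at the ends, and the KO profile had 7.37 and 6.88 against 8.38 at either end.

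**Figure D5:**
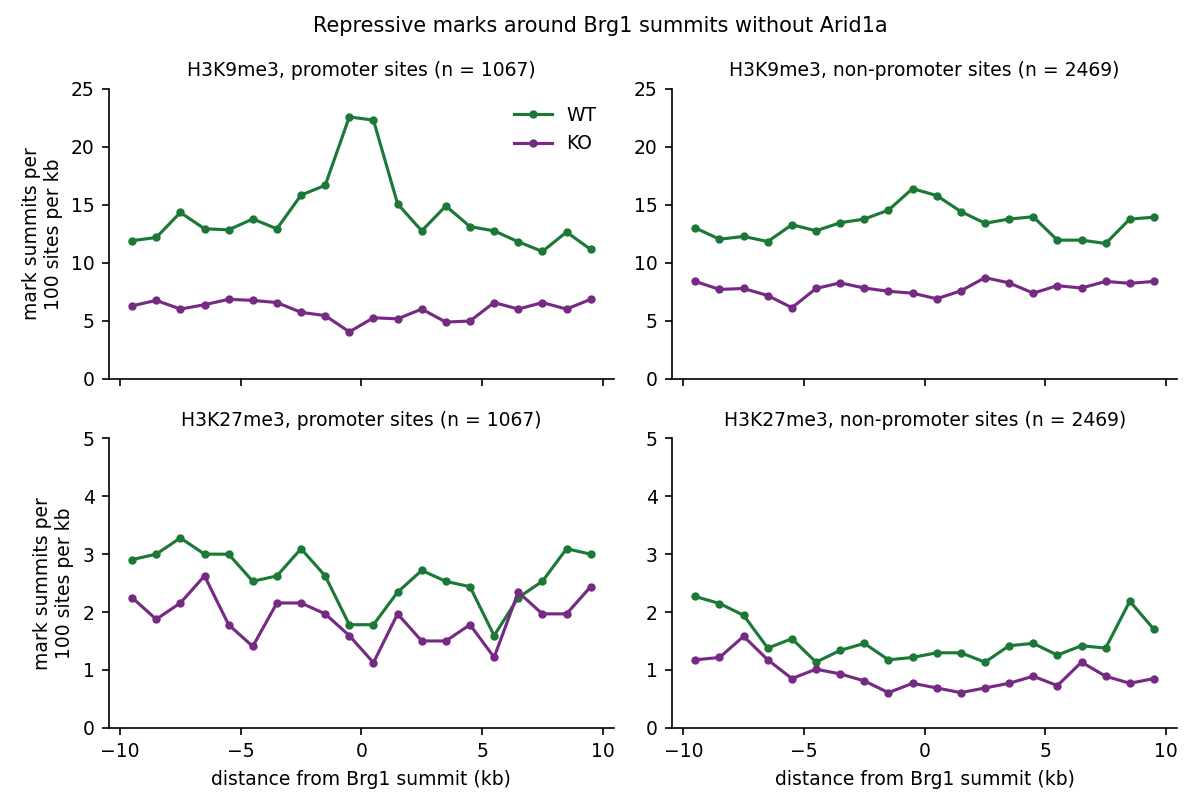
Summits of H3K9me3 (upper panels) and H3K27me3 (lower panels) per 100 members per kb against distance in kb from the Brg1 summit, in WT (green) and KO (purple), for promoter and non-promoter members. WT H3K9me3 rises to 22.6 at promoter members, KO H3K9me3 is at 4.03 there, and H3K27me3 stays below 4 summits throughout.

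Most of these H3K9me3 calls were weak, as were those of the whole list. At WT-only members the WT summit had a median −log10 q of 2.64, which is also the median of all WT H3K9me3 summits, and 22 of 913 (2.41%) reached 5. At those sites the nearest KO summit was a median 6837 bp away, and in 116 (12.7%) it lay at 1 to 2 kb. The calls shared by both genotypes were stronger at the top, with 19 of 183 (10.4%) at 5 or more and a highest value of 18.1. Among the 12 strongest sites, those with WT-only H3K9me3 included the sites beside Malat1 at 166 bp (3.15), beside Vmp1 at 697 bp (1.76) and at Cbx5 at 263 bp (5.47). KO-only H3K9me3 was called at Hist2h3c2, at 64 bp (2.33). The next KO-only sites were in Mrpl33, a mitochondrial ribosomal protein gene, at 837 bp (1.97) and in a coding exon of Spg11, a lysosome gene of hereditary spastic paraplegia, at 965 bp (1.90). What the WT and KO libraries owe to depth or antibody efficiency was not tested, since the lists do not give read depth.

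H3K27me3, the Polycomb mark of silenced developmental genes, was rare at the members in both genotypes. A WT summit lay within 1 kb of 85 (2.404%, 1.95 to 2.96) and a KO summit within 1 kb of 57 (1.61%, 1.25 to 2.08), against 3.54% and 2.09% of all Brg1 summits and 7.44% and 5.86% of autosomal bases. The values with Arid1a were 1.93% and 0.800%. WT-only H3K27me3 marked 44 members (1.24%, against 2.14% of all Brg1 summits), KO-only 16 (0.452%, against 0.699%) and both 41 (1.16%). In 9 of the 16 KO-only sites the WT list had a summit at 1 to 2 kb. Within the members the WT mark was more frequent beyond 10 kb from Arid1a, at 37 of 912 (4.06%, 2.96 to 5.54), than at 1 to 2 kb, at 14 of 903 (1.55%, 0.926 to 2.59). The rule used this distance, so the split is a description. Shares of all Brg1 summits in the same distance bands are not given here, so whether it is particular to the members was not tested.

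The strongest sites of each H3K27me3 state lay at promoters, in an exon and at distal positions. WT-only sites included one in an exon of Daglb, an enzyme of endocannabinoid synthesis (mark at 889 bp, −log10 q 2.29). Others lay 299 bp downstream of the start of BC030867 (34 bp, 1.475) and 339 bp upstream of Megf9 (638 bp, 2.29). Foxa2, a pioneer factor of hepatocyte genes, also had a WT-only H3K27me3 summit, 115 bp from a member 428 bp inside the gene. That call was weak, at −log10 q 2.27, below the median of 2.55 of the WT list. The nearest KO summit of the mark was 240526 bp away. KO-only sites were 118 bp inside Tmem151a (512 bp, 1.446), near Zbed4 (942 bp, 1.361) and upstream of Dmrt1 (338 bp, 2.16), a sex-determination gene. The nearest WT summits of the mark lay at 1061 bp (3.62), 2201 bp (2.27) and 7852 bp (2.27) in the same order. At Tmem151a the KO-only state thus rests on the 1 kb limit. Sites with the mark in both genotypes were in 1810010H24Rik, upstream of Eapp and upstream of Hectd2. Only 16 members had a WT-only call of both marks, and 2155 had neither mark in either genotype. With none of the 6 lists within 1 kb stood 1314 members (37.2%), against 18.1% with Arid1a and 46.4% of all Brg1 summits.

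Members were spread over many genes. Within 50 kb of a coding start lay 2456 members, nearest to 2063 genes, or 9.93% of 20771 autosomal protein-coding genes, of which 1735 had 1 member, 275 had 2 and 53 had 3 or more. A member lay within 2 kb of the start of 593 genes (2.85%). An Arid1a summit also lay within 2 kb of 250 of those 593 starts, against 37.0% of all coding starts. A strong Brg1 summit with Arid1a lay within 2 kb of 68 of the 593, against 8.19% of all genes. Both counts are a description, since the rule used the distance to Arid1a. The genes with most members were Adgrg6, an adhesion receptor of Schwann cell myelination, and Kmt2e, an H3K4 methyltransferase-family protein, with 6 each. Mrpl33 had 5, and Abi1, a Wave-complex adaptor of actin, Frk, a Src-family kinase, and Phactr4 had 4 each. The members of Adgrg6 stood between 4.08 and 6.74 in −log10 q and spanned the body and upstream side of the gene. Those of Frk were all intronic, 23969 to 49134 bp downstream of its start. A longer gene offers more room for summits, which was not adjusted for.

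Gene lists chosen with earlier results of these data in view are given as counts beside the 9.93% of all genes. Of 39 genes of epithelial-mesenchymal transition and extracellular matrix, 16 (41.03%) were nearest to a member, among them the collagens Col1a2, Col3a1 and Col5a2, fibronectin (Fn1), N-cadherin (Cdh2), Zeb1, Tgfb2 and its receptor Tgfbr2. Their starts were within 2 kb of a member in 5 cases and within 2 kb of a strong Brg1 summit with Arid1a in 15 (38.5%), against 2.85% and 8.19% of all genes. The Fn1 site was intronic, 47461 bp downstream of the start, at 5.87. Of 26 AP-1 and immediate early genes, 9 (34.6%) were nearest to a member, namely Egr1, Egr3, Fos, Fosl2, Ier5, Klf4, Mafk, Myc and Nr4a1, and 14 (53.8%) had a strong Brg1 summit with Arid1a at their start. The Myc site was at −1394 bp from the start, at 7.56, with strong Rad21 (37.8) and Ctcf (56.8) summits 558 and 547 bp away.

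Of 27 actin and Hippo target genes, 8 (29.6%, against 9.93% of all genes) were nearest to a member. These were Axl, Lats1, Myh9, Tagln2, Tead1, Tead3, Tpm1 and Tpm4. In this list 3 starts lay within 2 kb of a member and 8 (29.6%) within 2 kb of a strong Brg1 summit with Arid1a. The strongest member, 4926 bp inside the tropomyosin gene Tpm1, stood at 7.87 with Rad21 (49.0) and Ctcf (91.1) summits 443 and 345 bp away. Cell cycle brakes and p53 targets gave 7 of 23 (30.4%). The strongest were Cdkn2c (7.33), which encodes an inhibitor of Cdk4 and Cdk6, E2f1 (4.76) and Bbc3 (4.52), which encodes the apoptotic protein Puma. Here 1 start lay within 2 kb of a member and 11 (47.8%) within 2 kb of a strong Brg1 summit with Arid1a. Ras and MAPK feedback genes gave 5 of 25 (20%), the phosphatases Dusp1, Dusp5 and Dusp6 together with Phlda1 and Spred2. Their list had 3 starts within 2 kb of a member and 8 (32%) within 2 kb of a strong Brg1 summit with Arid1a. At Dusp5 the members stood at 5.87 and 5.78, with Arid1a summits 1093 and 1059 bp away.

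The counts of hepatocyte genes did not stand apart from the share of all genes. None of 25 autosomal plasma protein genes, the secreted products that mark mature hepatocytes, was nearest to a member, and none had a strong Brg1 summit with Arid1a at its start; a count of 0 of 25 allows a share of up to 12%, which includes the 9.93% of all genes. Of 22 hepatocyte transcription factors only Foxa2 (5.96) and Ppara (5.46), the fasting regulator of fat oxidation, were nearest to a member, a share of 9.09%. At Ppara the member lay at −46170 bp from the start, inside the non-coding gene Lncppara.

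Subunits of the chromatin complexes were themselves among the genes. Of 28 SWI/SNF subunit genes, 6 (21.4%) were nearest to a member, Arid1a, Arid1b, Bcl7a, Bicra, Bicral and Smarcc2. A member lay within 2 kb of the start in 4 of the 28, and a strong Brg1 summit with Arid1a in 7 (25%). The Arid1b site, 185 bp upstream of the start of the gene for the alternative ARID subunit, stood at 5.96 in 68.1% GC, with Rad21 392 bp and Arid1a 2689 bp away. It had a WT-only H3K9me3 call at 314 bp (1.42). The Bcl7a site, 612 bp inside the gene, stood at 5.79, and the Smarcc2 site, 1196 bp inside, at 5.50 with Arid1a (7.16) only 1112 bp away. Of 12 cohesin, Ctcf and loader genes, 3 were nearest to a member, Nipbl and Mau2, which together form the cohesin loader, and Smc3, a subunit of the ring. All 3 had a member within 2 kb of the start, and 3 of the 12 starts were within 2 kb of a strong Brg1 summit with Arid1a. Of 27 Polycomb genes, 3 were nearest to a member, Cbx7, Ezh2 and Phf1, which is close to the 9.93% of all genes. A start lay within 2 kb of a member in 1 case and of a strong Brg1 summit with Arid1a in 6 (22.2%). Within 50 kb of the gene bodies, Arid1a, Smarca4 and Ctcf had 2 members each and Pmp22 had 1. Rad21, Gsc, Atg10, Rnf125, Cdh5 and Six2 had none. Brg1 summits of any strength there numbered 11 at Arid1a, 17 at Smarca4, 20 at Ctcf and 10 at Pmp22. They numbered 5 at Rad21, 7 at Atg10, 11 at Rnf125, 2 at Cdh5 and 0 at Gsc and Six2, so Gsc and Six2 had no summit that could be a member.

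Members were unevenly spread over chromosomes, as was every list. They numbered 3.50 per Mb on chromosome 19 and 3.10 on chromosome 10, but 0.196 on chromosome 13 and 0.140 on chromosome 14. The whole Brg1 list had 71.0 and 63.3 summits per Mb on the former pair and 8.11 and 5.09 on the latter, and the Rad21 list 73.7, 58.8, 16.7 and 15.4. WT H3K9me3 had 76.0, 98.3, 20.6 and 18.9. The share of strong Brg1 summits that lacked Arid1a varied less, from 35.9% (23 of 64) on chromosome 13 to 63.0% (17 of 27, 44.2 to 78.5) on chromosome 14, with 36.5% on chromosome 19 and 36.9% on chromosome 17. What part chromosome copy number has in these densities was not tested.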

How the data were processed

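Chromatin immunoprecipitation and sequencing of AB17 cells gave 8 peak lists (Brg1, Arid1a, Rad21 and Ctcf in WT, H3K9me3 and H3K27me3 in WT and KO) and 2 input libraries, grouped by the sample titles with a single library in each group (n = 1). As the study's methods and the submitters' processing notes give it, reads were aligned to mm10 with bowtie2, low-quality reads were removed with SAMtools and duplicates with Picard, and peaks were called per sample with MACS2 at default settings against the corresponding input. Versions were not given in the sources used here. Each deposited list holds summits with the −log10 q-value assigned by the authors' peak calling, a unit read from the values because the lists have no header. A −log10 q grows with depth and was compared only within a list. Read depth and peak width were not analysed here, narrow calling splits broad marks into strings of summits, and the number of summits per list limits precision.

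Positions are 1-based in mm10. The members and the gene and motif lists were chosen with earlier results of these data known. Summits within 1 kb in different lists were counted as neighbours, GENCODE release 21 of the mouse gave transcript and gene starts, and each member was assigned to the nearest protein-coding start within 50 kb. Promoters lie within 2 kb of any transcript start and take precedence over exon, intron and intergenic sequence. Sequence and soft-masking came from the GRCm38 reference. Shares carry 95% Wilson intervals, and no test was run because each group is 1 library. Summits of the same library, and neighbouring summits, are not independent. Named sites were the 12 strongest after merging within 3 kb, those of the 6 genes with most members, up to 3 for each gene list and mark state, the sites at the limits of the rule, and the printed sequences. Sites outside this rule were chosen after their values were seen, and 1 site that the rule selects is not reported here. Alternatives changed the Brg1 and partner limits, the distances, repeats, merging, list size and the promoter definition. The counting was tested on simulated data. Python 3.11.15, numpy 2.4.6, pandas 2.3.3, scipy 1.17.1 and matplotlib 3.10.9 were used.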

Additional observations from a re-analysis of the deposited data

Results flagged for a closer look

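The sex chromosomes were outside the rule. Of 30 Brg1 summits on X and Y with a −log10 q of at least 4, 12 had no Arid1a summit within 1 kb and would have passed it. They included promoter summits of the transcription cofactor gene Hcfc1 and of the ribosomal protein gene Rps4x. Another lay 3004 bp downstream of the gene start of Rpl10, also a ribosomal protein gene, and within 2 kb of an annotated transcript start. The strongest, on X near 4932411N23Rik, stood at 7.72. These X and Y summits are given because the comparisons did not use these chromosomes. The share was 40% (24.6 to 57.7), an interval that includes the 45.4% of the autosomes.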

How the results depend on the processing

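Of 63 alternative values for the 9 main measures, 36 stayed within the interval of the reported value (for GC content, within 1 SD) and 27 moved outside it. Merging neighbours and leaving out the member near all 6 other lists moved none of them. With a Brg1 −log10 q of at least 5, the shares became 38.1% for promoters, 47.2% for Rad21, 32.4% for Ctcf, 9.94% for KO H3K9me3 and 18.8% for repeats. With no Arid1a within 2 kb, promoters fell to 25.9%, Rad21 to 33.7% and Ctcf to 24.3%, so that the promoter share was no longer above the 26.4% of all Brg1 summits. Without soft-masked summits, promoters held 33.1%, Rad21 was near 39.9% and KO H3K9me3 near 10.3%, and the repeat share has no value there. With partners within 500 bp, the shares were 25.03% for Rad21, 16.5% for Ctcf, 20.2% and 6.39% for WT and KO H3K9me3, and 1.56% and 0.848% for WT and KO H3K27me3. With partner −log10 q of at least 5 they were 11.5%, 13.9%, 1.44%, 0.424%, 0.424% and 0.396% in the same order. The excess of WT over KO H3K9me3 kept its direction under all of these, and rests on weak calls. At the partner limit of 5 the WT and KO values are not strictly comparable, because a −log10 q grows with depth and read depth was not analysed. With equal numbers of summits, WT H3K9me3 was near 29.0%. The promoter share was 20.3% within 1 kb, 47.0% within 5 kb and 17.1% with protein-coding gene starts only. A smaller partner or promoter distance can only lower a share, and a larger one can only raise it. The cause of the other changes, including those with the Arid1a distance, was not tested. No paired analysis was possible because each group is 1 library and no result comes from a test.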

Other observations

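Members with AP-1 letters within 100 bp, 338 in all, were close to the other members in WT H3K9me3 and, with promoter members included, in Rad21. They differed in promoters and CpG, and in Ctcf where promoter members were included. A WT H3K9me3 summit was within 1 kb of 32.2% of them (109) and 30.9% of the rest, and Rad21 was within 1 kb of 38.5% and 37.2%. Ctcf was near 19.5% (66, 15.7 to 24.1) and 26.7% (25.2 to 28.2), and Rad21 without Ctcf near 24.3% (20 to 29.1) and 18.1% (16.8 to 19.5). A promoter held 16.9% (57) and 31.6%, and a CpG-rich window surrounded 6 of them (1.78%) and 7.75% of the rest. Among non-promoter members alone, Rad21 without Ctcf was near 65 of 281 with AP-1 letters (23.1%) and near 15.6% of the others. These values describe 1 library per list, and no test was run.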
